A study of Mus musculus with 16 samples.

Results

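Genes that mark the lipid-handling macrophages described in scarred lungs, 10 in all, were followed across all 16 libraries of a mouse bleomycin study. The 10 members are Trem2, Gpnmb, Cd63, Cd9, Spp1, Lgals3, Pdgfa, Apoe, Lpl and Fabp5. They were taken by name, with earlier results of these data known, and each had 1 of the 53647 gene identifiers measured. All 10 were among the 17003 genes that entered the tests, which needed at least 1 TPM in at least 4 libraries.

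Macrophages that gather in injured and fibrotic lung take up lipid and cell debris, break them down in lysosomes and secrete factors that act on fibroblasts. Trem2 is a surface receptor for lipids and apolipoproteins that signals through the adaptor Tyrobp, and Gpnmb, Cd63 and Cd9 are membrane proteins of lysosomes, vesicles or the cell surface. Spp1 encodes osteopontin, Lgals3 encodes galectin-3 and Pdgfa encodes a growth factor for fibroblasts that carry Pdgfra. Apoe carries lipid out of cells, Lpl releases fatty acids from lipoproteins, and Fabp5 carries fatty acids inside the cell. None of the 10 is made by macrophages alone: epithelial, endothelial or mesenchymal cells of the lung also make Cd9, Cd63, Pdgfa, Lgals3 and others.

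RNA from whole mouse lung was sequenced in 4 groups. The Ad-ATP12A group received bleomycin and an adenovirus named for ATP12A, the alpha subunit of a non-gastric proton pump that the series title names as a target in idiopathic pulmonary fibrosis. The Ad-GFP group received bleomycin and an adenovirus with the fluorescent protein GFP, the Bleomycin group received bleomycin, and the Control group carries neither label. Bleomycin is a DNA-damaging drug that scars the lung and serves as a mouse model of fibrosis. There were 4 libraries a group, 2 in batch 1 and 2 in batch 2, written here by batch and replicate, so that b2r1 is batch 2, replicate 1. Strain, sex, age, dose, day of collection, the promoter of the vectors and whether replicates were separate animals are not given in the labels, so p-values measure the spread between these libraries, which may be technical.

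Levels are given in TPM, a unit of transcript abundance that corrects for transcript length and fixes each library's sum. Read numbers cannot be had back from TPM, and sequencing depth is therefore unknown. Between 15537 and 16336 genes reached 1 TPM in a library. Atp12a stood at 5.13, 2.96, 29.0 and 25.7 TPM in the Ad-ATP12A libraries (b1r1, b1r2, b2r1, b2r2), against at most 0.2 TPM in any other library. Libraries also differed in ways the labels do not describe: 3 libraries (Control b2r1, Bleomycin b2r2 and Ad-GFP b1r1) held under 1000 TPM of the club cell gene Scgb1a1, and 6 held at least 10 TPM of Xist. The Xist libraries were Ad-ATP12A b1r1, b1r2 and b2r2, Ad-GFP b1r1, Bleomycin b2r1 and Control b1r1. The 10 members together took 0.48% to 1.62% of the TPM in Ad-ATP12A, 0.407% to 1.41% in Ad-GFP, 0.529% to 0.824% in Bleomycin and 0.224% to 0.248% in Control. In whole tissue, fewer cells of a type and less RNA per cell cannot be told apart.

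The 3 members with the largest differences from control lungs, Spp1, Trem2 and Gpnmb, are shown with the 250 bases before their RefSeq transcript start (GRCm38.p6, all on the plus strand), so that the letters upstream of genes that moved together can be compared. The windows lie at chr5:104434861-104435110 for Spp1, chr17:48346151-48346400 for Trem2 and chr6:49036268-49036517 for Gpnmb. Capitals mark matches, on either strand, to 5 motifs. The TATA box, where general transcription factors bind, was searched as TATAAA. The motif of AP-1, a factor of growth and stress signals, was searched loosely as TGANTCA, with N standing for any base. The core bound by PU.1, a transcription factor of myeloid cells, was searched as GAGGAA. The half-site of nuclear receptors was searched as AGGTCA, and the E-box, bound by basic helix-loop-helix factors, as CACGTG.
Spp1: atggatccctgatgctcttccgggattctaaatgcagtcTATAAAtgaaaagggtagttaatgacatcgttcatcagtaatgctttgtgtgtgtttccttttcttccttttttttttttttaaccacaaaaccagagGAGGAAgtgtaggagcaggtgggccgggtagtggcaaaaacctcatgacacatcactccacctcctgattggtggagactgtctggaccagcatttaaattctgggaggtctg
Trem2: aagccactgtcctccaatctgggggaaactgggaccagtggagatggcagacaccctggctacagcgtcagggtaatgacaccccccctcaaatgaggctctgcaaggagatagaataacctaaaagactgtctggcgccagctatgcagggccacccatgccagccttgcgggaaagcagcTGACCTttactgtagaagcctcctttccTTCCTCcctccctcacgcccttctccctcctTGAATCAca
Gpnmb: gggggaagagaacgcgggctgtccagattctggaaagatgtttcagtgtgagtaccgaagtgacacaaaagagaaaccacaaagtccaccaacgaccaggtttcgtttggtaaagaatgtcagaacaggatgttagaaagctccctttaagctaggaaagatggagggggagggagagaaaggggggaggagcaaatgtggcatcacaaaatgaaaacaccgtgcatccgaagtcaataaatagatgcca

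No motif was in all 3 windows. Spp1 held GAGGAA starting 113 bases before the start and TATAAA at 211. Trem2 held the nuclear receptor half-site 68 bases, the PU.1 core 40 bases and a match to the AP-1 pattern, TGAATCA, 9 bases before the start. Gpnmb held no match to any of the 5. Windows were found for 8 of the 10 members, all but Lpl and Fabp5. GAGGAA was in 5 of the 8 (Spp1, Trem2, Cd63, Apoe and Pdgfa) and in 23.1% of the windows of 27025 genes, while CACGTG was in none of the 8 and in 6.04% of all windows. The AP-1 motif, the half-site and the TATA box were each in 1 of the 8, and in 6.85%, 13.8% and 13% of all windows. A match is a run of letters only, and no binding was measured.

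Bleomycin lungs were compared with control lungs to ask how these genes stand in the injured lung. In all, 7 members, Spp1, Trem2, Gpnmb, Lgals3, Apoe, Lpl and Cd63, were higher in Bleomycin than in Control, and Fabp5, Cd9 and Pdgfa did not pass the test. The count of 7 of 10 stands beside 13.2% of all 17003 genes called higher and 5.61% called lower at an adjusted p under 0.05 (limma, Benjamini-Hochberg over all genes). Because the members were chosen with earlier results of these data known, the 2 shares are a description and not an independent test. The members' median log2 fold change was 1.50, against 0.05 for all genes tested. The same 7 also had no overlap between the 4 Bleomycin and the 4 Control libraries, which 16.5% of all genes showed in the upward direction. Each log2 fold change is that of TPM + 1, which understates the change of low genes, from a fit with batch as a term. All 7 were higher within both batches. With the 2 libraries a group of batch 1 alone, Spp1, Trem2, Lgals3, Cd63 and Apoe passed, Gpnmb (adjusted p = 0.0516) and Lpl (0.0684) did not, and Pdgfa did (0.0191). With those of batch 2 alone only Gpnmb passed (0.0492, limma).

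**Figure D1:**
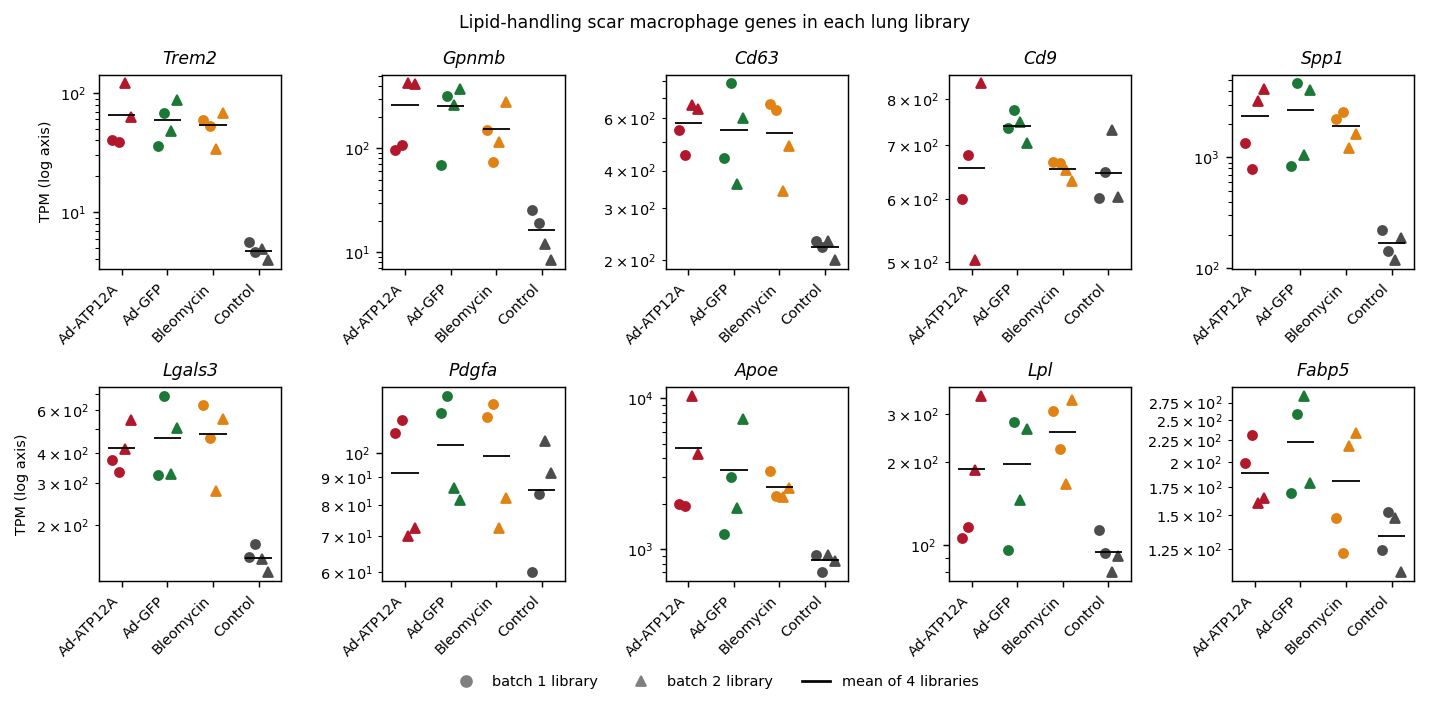
TPM of each member (log axis) in the 16 libraries, by group, with circles for batch 1, triangles for batch 2 and a bar at the mean of 4 libraries. Trem2, Gpnmb and Spp1 lie far above Control in every bleomycin-exposed library, Cd9 lies within 503 to 836 TPM throughout, and Pdgfa splits by batch.

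Among the membrane proteins, Trem2 gave the smallest p of the 10 members. It stood at 59.4, 52.9, 33.9 and 68.4 TPM in Bleomycin (b1r1, b1r2, b2r1, b2r2, the order used below), against 5.57, 4.60, 4.87 and 3.96 TPM in Control. The lowest Bleomycin library, b2r1, was still far above the highest Control library. The difference was 3.21 ± 0.33 on the log2 scale (SE, n = 4 each, adjusted p = 0.000113, limma), 9.27-fold, and it was 3.23 within batch 1 and 3.19 within batch 2.

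Gpnmb was at 151, 73.9, 115 and 281 TPM in Bleomycin, against 25.45, 19.1, 12.0 and 8.36 TPM in Control. The groups were apart and both varied widely, with a coefficient of variation of 57.8% in Bleomycin and 46.8% in Control. The log2 fold change was 3.12 ± 0.57 (SE, adjusted p = 0.00314, limma), with 2.21 within batch 1 and 4.03 within batch 2. That batch gap was not past the threshold (interaction adjusted p = 0.285).

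Cd63, a tetraspanin of late endosomes and lysosomes, was at 671, 641, 342 and 485 TPM in Bleomycin, against 232, 222, 232 and 200.3 TPM in Control. Every Bleomycin library exceeded every Control library, and the log2 fold change was 1.22 ± 0.23 (SE, adjusted p = 0.00407, limma). Cd9, the other tetraspanin among the members, was at 667, 666, 653 and 631 TPM in Bleomycin, against 602, 647, 732 and 604 TPM in Control. These overlapped almost wholly: the log2 difference was 0.02, with a 95% interval of -0.26 to 0.30 (adjusted p = 0.929, limma). Cd9 was the more abundant of the 2 tetraspanins in Control, and among the members only Apoe was higher there. Near copies of Cd63, Cd9 and Fabp5 are annotated in the mouse genome, so some reads of these genes could have been assigned to a copy.

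Among the secreted ligands, Spp1 had the largest fold change of the 10. It was at 2205, 2597, 1211 and 1636 TPM in Bleomycin, against 220.3, 145, 119 and 189 TPM in Control. The groups did not overlap, and the log2 fold change was 3.48 ± 0.59 (SE, adjusted p = 0.00216, limma), 11.2-fold. By mean TPM, osteopontin RNA was the 49th most abundant transcript of all genes in Bleomycin and the 648th in Control. The change ranked 10th from the top among 17003 genes, with Trem2 at 14 and Gpnmb at 15.

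Lgals3 was at 631, 462, 277 and 553 TPM in Bleomycin, against 148, 168, 144 and 127 TPM in Control, with no overlap. Its log2 fold change was 1.65 ± 0.27 (SE, adjusted p = 0.00171, limma), with 1.77 and 1.52 within batches 1 and 2. Pdgfa was at 116, 123, 72.3 and 82.3 TPM in Bleomycin, against 59.9, 84.0, 105 and 91.6 TPM in Control. The groups overlapped, and the pooled log2 difference of 0.20 ± 0.20 did not pass (SE, adjusted p = 0.514, limma). Within batch 1 both Bleomycin libraries exceeded both Control libraries, and within batch 2 both lay below.

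Of the lipid carriers and lipase, Apoe was the most abundant member in all 4 groups by mean TPM. It was at 3285, 2247, 2203 and 2547 TPM in Bleomycin, against 912, 701, 906 and 837 TPM in Control. Every Bleomycin library exceeded every Control library here too, and the log2 fold change was 1.60 ± 0.47 (SE, adjusted p = 0.0315, limma). Lpl was at 307, 224, 167 and 338 TPM in Bleomycin, against 113, 93.4, 79.5 and 91.5 TPM in Control, a log2 fold change of 1.40 ± 0.38 (SE, adjusted p = 0.0216, limma) with no overlap. Both calls lie near the threshold: that of Apoe was lost in 12 of 29 alternatives and that of Lpl in 8. With the replicate number as a block, the adjusted p of Apoe was 0.0526 (limma). Leaving out Bleomycin b1r1, b1r2 or b2r2, or Control b1r2, b2r1 or b2r2, put it between 0.0529 and 0.109. It was 0.0783 with no filter, 0.0688 with quantile normalization, 0.0531 with no batch term and 0.0937 without the libraries low in Scgb1a1. For Lpl, leaving out Bleomycin b1r1, b1r2 or b2r2, or Control b2r1, gave adjusted p between 0.0544 and 0.0768. Its adjusted p was 0.0529 with no filter and 0.101 without the libraries low in Scgb1a1 (limma). The log2 fold change of Lpl was never under 1.18 in any alternative.

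Fabp5 was at 148, 123, 217 and 234 TPM in Bleomycin, against 125, 153, 148 and 111 TPM in Control. The batch 1 values lay among those of Control and the batch 2 values above them. Its log2 difference of 0.39 ± 0.22 did not pass (SE, adjusted p = 0.237, limma), with -0.04 within batch 1 and 0.81 within batch 2 (interaction adjusted p = 0.224).

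**Figure D2:**
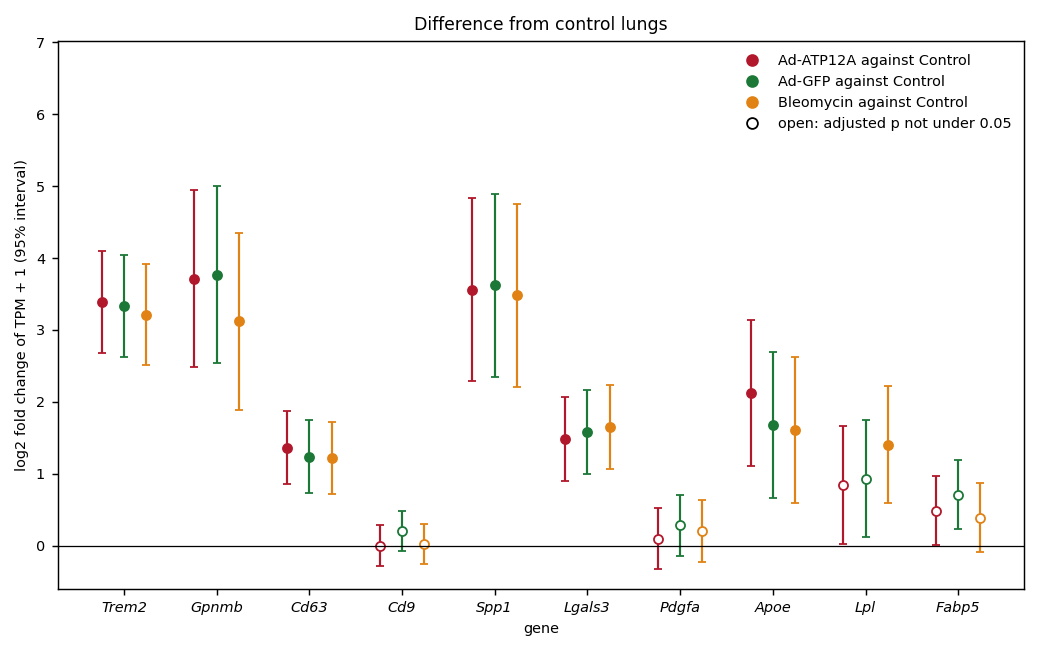
Log2 fold change of each member against Control in the Ad-ATP12A, Ad-GFP and Bleomycin groups, with 95% intervals from the fit over 16 libraries; filled points passed an adjusted p under 0.05. Spp1, Trem2 and Gpnmb lie between 3.12 and 3.77 in all 3, Cd9 and Pdgfa lie near 0, and Lpl passed in Bleomycin and did not pass in the vector groups.

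In the 2 groups given a vector as well, 6 members were higher than in Control, all but Lpl of those called in Bleomycin. This compares with 9.16% of genes called higher and 4.52% lower in Ad-GFP, and with 13.3% higher and 9.49% lower in Ad-ATP12A. The members' medians were 1.42 in Ad-ATP12A and 1.41 in Ad-GFP, against 0.00 and 0.03 for all genes. These comparisons share their 4 Control libraries with the one above. In each, 7 of 10 members did not overlap with Control, the 6 called and Fabp5, beside 14.0% of all genes in Ad-ATP12A and 10.8% in Ad-GFP in the upward direction.

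Trem2 was at 40.1, 39.0, 121 and 63.1 TPM in Ad-ATP12A and at 36.1, 67.6, 47.7 and 88.3 TPM in Ad-GFP. Both groups lay wholly above Control, by 3.39 ± 0.33 in Ad-ATP12A (SE, adjusted p = 6.2e-05) and 3.33 ± 0.33 in Ad-GFP (adjusted p = 0.000118, limma). Gpnmb was at 96.3, 107, 425 and 424 TPM in Ad-ATP12A and at 69.0, 318, 265 and 373 TPM in Ad-GFP. It exceeded Control by 3.71 ± 0.57 in Ad-ATP12A (SE, adjusted p = 0.00102) and by 3.77 ± 0.57 in Ad-GFP (adjusted p = 0.00158, limma). Both Ad-ATP12A libraries of batch 1 lay well below both of batch 2.

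Spp1 was at 1347, 785, 3227 and 4163 TPM in Ad-ATP12A and at 836, 4664.5, 1055 and 4067 TPM in Ad-GFP. Its spread was wider than in Bleomycin, with coefficients of variation of 66.5% in Ad-ATP12A and 75% in Ad-GFP, against 32% in Bleomycin. The log2 fold changes against Control were 3.56 ± 0.59 in Ad-ATP12A (SE, adjusted p = 0.00157) and 3.62 ± 0.59 in Ad-GFP (adjusted p = 0.00238, limma). Lgals3 and Cd63 were higher by 1.48 and 1.36 in Ad-ATP12A (adjusted p = 0.00274 and 0.00189) and by 1.58 and 1.24 in Ad-GFP (adjusted p = 0.00319 and 0.00537, limma).

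Apoe was at 1999, 1939, 10417 and 4277 TPM in Ad-ATP12A and at 1249, 2982, 1869 and 7253 TPM in Ad-GFP. The batch 2 libraries were the highest in Ad-ATP12A, and no vector library overlapped with Control. The log2 fold change against Control was 2.12 ± 0.47 in Ad-ATP12A (SE, adjusted p = 0.0075) and 1.67 ± 0.47 in Ad-GFP (adjusted p = 0.033, limma). The Ad-GFP call was lost in 13 of 29 alternatives. It ended with a replicate block (adjusted p = 0.0552), and without Ad-GFP b1r2 or b2r2 or Control b1r2, b2r1 or b2r2 (0.0624 to 0.113). It also ended with no filter (0.0814), quantile normalization (0.0590), no batch term (0.0555) and only the 2 groups compared (0.0692, limma). Without the libraries low in Scgb1a1 the adjusted p was 0.0730, and in batch 1 and batch 2 alone it was 0.0650 and 0.180.

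Lpl was at 106, 116, 187 and 350.02 TPM in Ad-ATP12A and at 95.7, 281, 145 and 265 TPM in Ad-GFP. In both groups the lowest libraries lay within or next to the Control values, and neither 0.84 ± 0.38 in Ad-ATP12A (SE, adjusted p = 0.124) nor 0.93 ± 0.38 in Ad-GFP (adjusted p = 0.118, limma) passed. Fabp5 was at 199, 231, 160.4 and 165 TPM in Ad-ATP12A and at 169, 258, 286 and 179 TPM in Ad-GFP, every library above the highest Control library. Its log2 differences were 0.49 ± 0.22 (SE, adjusted p = 0.128) in Ad-ATP12A and 0.70 ± 0.22 (adjusted p = 0.0505, limma) in Ad-GFP. The Ad-GFP value passed in 7 of 29 alternatives, 0.04 being the smallest adjusted p. Cd9 differed from Control by 0.00 in Ad-ATP12A (95% interval -0.28 to 0.28) and by 0.20 in Ad-GFP (-0.08 to 0.48).

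**Figure D3:**
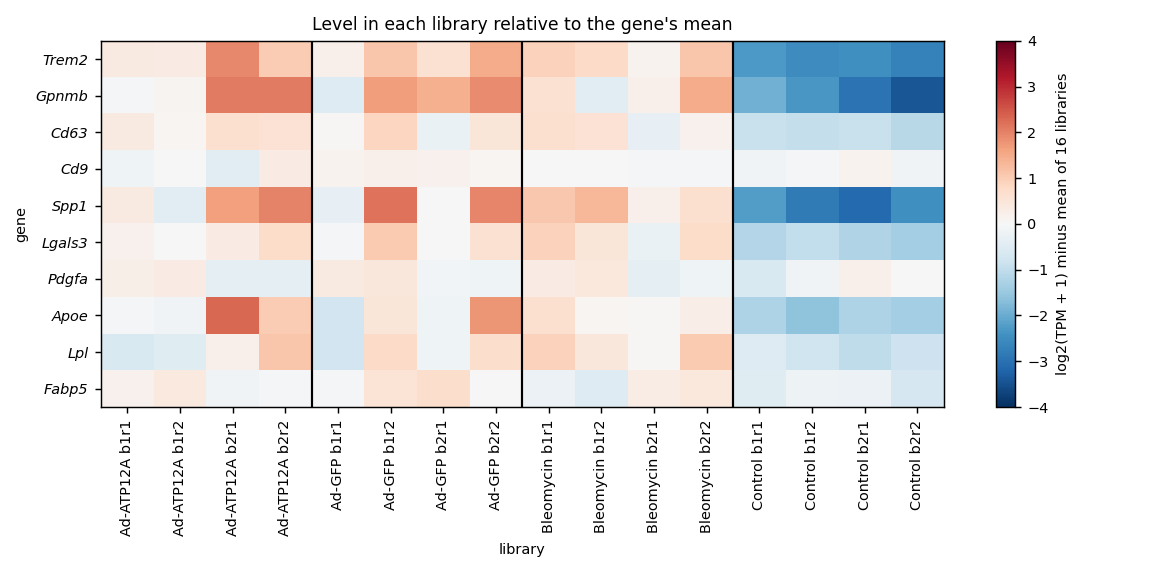
Log2(TPM + 1) of each member in each library minus that gene's mean over 16 libraries, red above and blue below, with groups divided by black lines. All 4 Control libraries are blue for Trem2, Gpnmb and Spp1, the 2 batch 2 libraries of Ad-ATP12A are the deepest red for Gpnmb, and the rows of Cd9 and Pdgfa stay pale.

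Pdgfa was the 1 member whose difference from Control changed direction with batch in all 3 exposed groups. In batch 1 it was higher than Control by 0.65 in Ad-ATP12A, 0.79 in Ad-GFP and 0.75 in Bleomycin, and in batch 2 it stood at -0.46, -0.23 and -0.35. With batch 1 alone all 3 differences passed (adjusted p = 0.0375 in Ad-ATP12A, 0.0201 in Ad-GFP and 0.0191 in Bleomycin), and with batch 2 alone none did (0.0649, 0.387 and 0.25, limma). Its values were 109 and 115 TPM (batch 1) and 70.1 and 72.6 TPM (batch 2) in Ad-ATP12A, and 119 and 128 TPM (batch 1) and 85.8 and 81.8 TPM (batch 2) in Ad-GFP. Exposed libraries of batch 1 lay above those of batch 2, while in Control the batch 1 values (59.9 and 84.0 TPM) lay below the batch 2 values. As an interaction of group and batch, the difference was -1.11 ± 0.20 for Ad-ATP12A (SE, adjusted p = 0.0321), -1.01 ± 0.20 for Ad-GFP (adjusted p = 0.0376) and -1.09 ± 0.20 for Bleomycin (adjusted p = 0.0544, limma). Of all genes, 2.80% passed this test for Ad-ATP12A, 2.36% for Ad-GFP and 0.0647% for Bleomycin, and no other member did. The 3 interactions rest on the same 4 Control libraries, and without Control b1r1 the adjusted p was 0.119 for Ad-ATP12A and 0.159 for Ad-GFP.

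**Figure D4:**
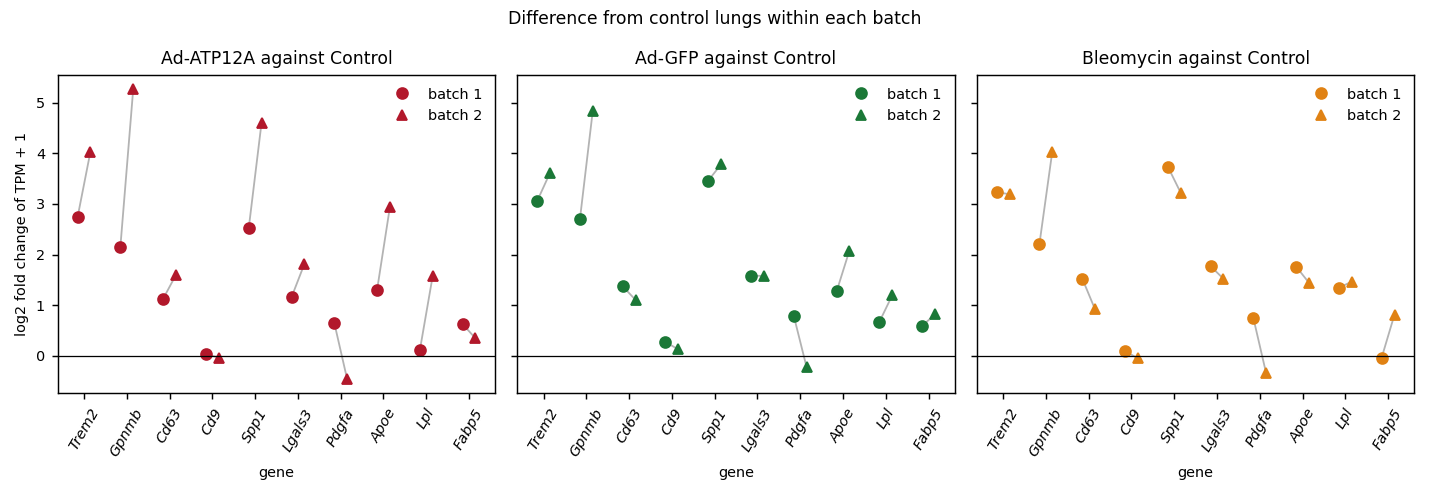
Difference from Control within batch 1 (circles) and batch 2 (triangles), in log2(TPM + 1), for Ad-ATP12A, Ad-GFP and Bleomycin. Pdgfa crosses 0 in all 3 panels, and in the Ad-ATP12A panel Trem2, Gpnmb, Spp1, Apoe and Lpl are each higher in batch 2.

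By label, the Ad-ATP12A and Ad-GFP groups differ in the vector, and their comparison asks what the ATP12A vector adds. No member differed between them, 1 of 17003 genes was called (0.00588%), and 413 genes had an unadjusted p under 0.05, none of them a member. The members' median was -0.07. The intervals are wide: Spp1 differed by -0.06 (95% interval -1.33 to 1.21), Gpnmb by -0.05 (-1.29 to 1.18), Trem2 by 0.05 (-0.65 to 0.76) and Apoe by 0.44 (-0.57 to 1.46). For Cd9 the interval was narrower, -0.48 to 0.08 around -0.20. A p that misses the threshold does not show equal levels. Xist reached at least 10 TPM in 3 Ad-ATP12A libraries and in 1 Ad-GFP library, so the comparison is not balanced for it. With a term for Xist in the fit, again no member was called.

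Against Bleomycin, no member passed in Ad-ATP12A (4 genes called, 0.0235%, and 509 with an unadjusted p under 0.05) or in Ad-GFP (2 genes called, 0.0118%, and 287 with an unadjusted p under 0.05), and no member had an unadjusted p under 0.05 in either. The members' medians were 0.09 in Ad-ATP12A and 0.10 in Ad-GFP. Cd9 was at 735, 774, 749 and 704 TPM in Ad-GFP, all above the 4 Bleomycin libraries, as 0.806% of genes did in either direction, but its log2 difference of 0.18 ± 0.13 did not pass (SE, adjusted p = 0.99979, limma). The largest difference in size was that of Gpnmb, 0.59 ± 0.57 in Ad-ATP12A and 0.64 ± 0.57 in Ad-GFP (SE).

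**Figure D5:**
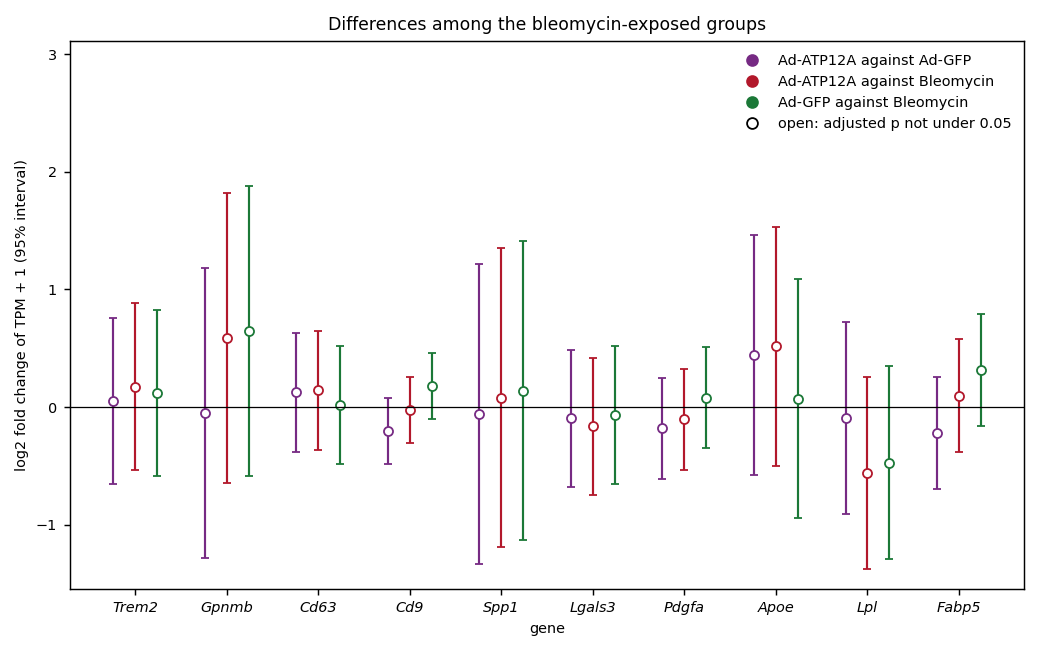
Log2 differences of each member among the bleomycin-exposed groups with 95% intervals; all points are open because none passed an adjusted p under 0.05. Every interval includes 0, and those of Spp1 and Gpnmb are the widest.

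Within batches, the Ad-ATP12A group stood on both sides of Bleomycin. Spp1 stood at -1.22 on the log2 scale in batch 1 and at 1.38 in batch 2, Apoe stood at -0.46 and 1.49, and Trem2 at -0.49 and 0.84. Fabp5 ran the other way, at 0.66 in batch 1 and -0.47 in batch 2. In all, 5 members had an unadjusted interaction p under 0.05, between 0.00791 for Fabp5 and 0.0416 for Trem2, as did 3368 of 17003 genes (19.8%). After adjustment no member passed (smallest adjusted p = 0.165, limma), nor did any other gene. The 2 batch 2 libraries of Ad-ATP12A also had the higher Atp12a level, 29.0 and 25.7 TPM against 5.13 and 2.96 TPM in batch 1. Both batch 1 libraries were among those with Xist, as was b2r2 of batch 2. The part of either in the result was not tested.

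Genes that work with the members moved only in part. The lists used from here on were also chosen with earlier results of these data known. Of the 8 adaptor and signalling genes of Trem2, 3 were higher in Bleomycin than in Control: Tyrobp, its membrane adaptor (417 against 179 TPM, log2 fold change 1.21, adjusted p = 0.0111), Blnk (0.83, adjusted p = 0.00425) and Ptpn6, a phosphatase that restrains such signals (0.48, adjusted p = 0.0292, limma). Syk, Plcg2, Btk, Inpp5d and Hcst did not pass, and the list's median was 0.36.

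Among 21 lysosomal genes, 15 were higher in Bleomycin and none lower, with a median of 0.99. They include the proteases Ctss (1442 against 262 TPM, log2 fold change 2.45, adjusted p = 0.000263), Ctsz (1.19, adjusted p = 0.000232) and Ctsk, the phosphatase Acp5 (1.94, adjusted p = 0.000829) and the lipid-degrading cofactor Psap (1.29, adjusted p = 0.00163, limma). The membrane proteins Lamp1 and Lamp2 did not pass, at 0.17 and 0.25, and of the transcription factors of lysosomal genes Tfe3 was higher (0.57, adjusted p = 0.0148) while Mitf and Tfeb did not pass. In Ad-ATP12A 15 of the 21 were higher and in Ad-GFP 14.

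Of 19 tested genes for uptake, storage and export of lipid, 6 were higher and 1 lower in Bleomycin, with a median of 0.23. The scavenger receptor Msr1 was higher by 2.83 (41.1 against 4.91 TPM, adjusted p = 0.00801), the HDL receptor Scarb1 by 1.07 (adjusted p = 0.007), the cholesterol carrier Npc2 by 0.56 (adjusted p = 0.00607) and Pla2g7, Lipa and Abca1 also passed. Pltp, which transfers phospholipid between lipoproteins, fell by 0.91 (209 against 378 TPM, adjusted p = 0.00866, limma). The fatty acid receptor Cd36, the droplet protein Plin2, Abcg1, Pparg and Apoc1 were among the 12 that did not pass. In a list of other fatty acid binding proteins and lipases, 4 of 7 tested genes were lower and 1 was higher, with a median of -0.63. The endothelial lipase Lipg was at -1.07 (adjusted p = 0.00377) and Fabp1 at -2.54 (adjusted p = 0.00895), Pnpla2 and Fabp3 were also lower, and Fabp7 was at 1.81 TPM in Bleomycin against 0.152 TPM in Control (1.21, adjusted p = 0.0391, limma).

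Of 18 receptors and partners of Spp1, Pdgfa, Apoe, Lpl and Cd63, 5 were higher in Bleomycin and none lower, with a median of 0.27. Timp1, a ligand of Cd63, was at 248 against 8.49 TPM (log2 fold change 4.42, adjusted p = 0.00223), and the Apoe receptors Lrp8 and Lrp1, the integrin subunit Itga5 and the lipase maturation factor Lmf1 were also higher. The osteopontin receptor Cd44 (0.67) and the integrin subunit Itgav (0.56) did not pass. Among the other PDGF ligands and receptors, Pdgfd was lower, at -0.94 (11.3 against 20.9 TPM, adjusted p = 0.0297, limma), and the receptors Pdgfra (-0.60) and Pdgfrb (0.44) and the ligands Pdgfb and Pdgfc did not pass. Of 10 other galectins and tetraspanins, Lgals3bp, Lgals1 and Cd53 were higher and the remaining 7, Cd81 and Cd151 among them, did not pass.

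Markers of the cells that could supply these transcripts moved unevenly. Of 8 general macrophage genes, Cd68 (160 against 51.9 TPM, log2 fold change 1.62, adjusted p = 0.0142) and Fcgr1 were higher in Bleomycin, while Adgre1 (1.31), Itgam (1.13), Csf1r (0.70) and Lyz2 (-0.07) did not pass. Of 11 markers of monocytes and interstitial macrophages 7 were higher and none lower, with C1qa, C1qb and C1qc at 2.78, 2.99 and 2.62. Ly6c2 (mean 28.7 TPM in Bleomycin against 40.8 TPM in Control) and Lyve1 (98.4 against 159.9 TPM) were not among the 7. Of 10 markers of resident alveolar macrophages 1 was higher (Atp6v0d2, 1.17) and 3 were lower (Ear1, Cidec and Krt79), while Siglecf, Marco and Chil3 did not pass. The summed level of the monocyte and interstitial list ran from 829 to 1582 TPM in Bleomycin and from 307 to 483 TPM in Control. By mean TPM its largest parts in Bleomycin were C1qa, C1qb and C1qc (349, 304 and 220 TPM, against 47.6, 35.7 and 33.7 TPM in Control). The alveolar macrophage list summed to 992 to 1274 TPM in Bleomycin and to 837 to 1658 TPM in Control. Its largest part was Chil3, with means of 540 TPM in Bleomycin and 617 TPM in Control. Of 7 markers of myofibroblasts and scar fibroblasts 4 were higher: the collagen chains Col3a1 (log2 fold change 3.02, adjusted p = 0.000131) and Col1a1 (3.48, adjusted p = 0.00217), the collagen-associated Cthrc1 (2.41, adjusted p = 0.0313) and the surface protease Fap (0.86, adjusted p = 0.0146, limma). Acta2 (213 against 134 TPM), Tagln (253 against 140 TPM) and Postn (303 against 185 TPM) did not pass. The summed level of this list was 1301 to 2725 TPM in Bleomycin and 522 to 701 TPM in Control. Its largest parts in Bleomycin were Col3a1 and Col1a1, with means of 735 and 496 TPM against 91.0 and 41.5 TPM in Control. Of 7 markers of alveolar fibroblasts and lipofibroblasts 3 were lower: Inmt (-2.41), Limch1 (-1.03) and Wnt2 (-0.95). Tcf21, Npnt, Macf1 and Slc7a10 did not pass. The list's sum was 780.1 to 1674 TPM in Bleomycin and 2415 to 4588 TPM in Control. Inmt was the largest part of it, with means of 453 TPM in Bleomycin and 2346 TPM in Control. A single marker was lower in each of 3 further lists, the type 1 cell gene Hopx of 7 (-0.71), the endothelial receptor Kdr of 5 (-1.13) and the heart muscle calcium channel Ryr2 of 6 (-0.99). The summed levels of the endothelial list (958 to 1418.5 TPM in Bleomycin and 1518 to 1998 TPM in Control) were apart, while those of the type 1 list (2901 to 3742 TPM in Bleomycin and 3262 to 4954 TPM in Control) and of the heart muscle list (84.4 to 363 TPM in Bleomycin and 295 to 563 TPM in Control) overlapped. No marker of neutrophils (5 tested), dendritic cells (7), type 2 cells (7), club cells (5), adipocytes (4) or platelets (6) passed in this comparison. The part of these markers in the members' differences was not tested.

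Members were also set against the summed level of the general macrophage genes. The list's sum is mostly Lyz2, which type 2 cells also make (88.9% to 97.5% of it), so the other 7 genes were summed, a choice made after the values were seen. That sum was 314 to 635 TPM in Bleomycin and 189 to 266 TPM in Control. Trem2 was 0.0916 to 0.169 of it in Bleomycin and 0.0193 to 0.0210 in Control, Gpnmb 0.235 to 0.443 in Bleomycin and 0.0443 to 0.0955 in Control, and Spp1 2.58 to 8.27 in Bleomycin and 0.506 to 1.00 in Control. None of these ranges overlapped, with Lyz2 in the sum or without it. Lgals3 was also apart with either sum (without Lyz2, 0.748 to 1.47 in Bleomycin and 0.555 to 0.704 in Control), and Cd63 and Lpl overlapped with either, although their TPM values were apart. Apoe and Cd9 turned on the choice of sum. Without Lyz2, Apoe overlapped (4.01 to 7.16 in Bleomycin and 2.94 to 4.43 in Control) and Cd9 was lower relative to the sum, at 0.995 to 2.12 in Bleomycin and 2.26 to 3.20 in Control. With Lyz2, Apoe was apart (0.213 to 0.566 in Bleomycin and 0.0798 to 0.148 in Control) and Cd9 overlapped (0.0630 to 0.115 in Bleomycin and 0.0562 to 0.107 in Control). These ratios are a description, without a test.

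Likeness of profile was taken as the mean absolute difference of log2(TPM + 1), centred within batch, over the 16 libraries. The genes nearest to Trem2 were Col3a1, a fibrillar collagen chain (0.22), the protease Ctss (0.27) and C1qb, a complement subunit (0.28). Those nearest to Gpnmb were Eln, which encodes elastin (0.40), Wfdc17 (0.42) and Igf1, a growth factor (0.45), and those nearest to Spp1 were Eln (0.33), the collagen-modifying enzyme P4ha3 (0.38) and Col1a1 (0.42). Between members, Lgals3 and Cd63 were the closest pair (0.19), followed by Cd9 and Pdgfa (0.21), while Trem2 lay at 0.45 from both Gpnmb and Spp1. This measure is small between any genes that vary little. By rank among the genes compared, Pdgfa was only the 6247th nearest to Cd9, and Cd9 the 2457th nearest to Pdgfa. Trem2 was the 3rd nearest to Gpnmb and the 6th nearest to Spp1. Cd63 was nearest to Cstb, a cathepsin inhibitor (0.05), Lgals3 to Dbn1 (0.12), Lpl to the coagulation factor F10 (0.16), Fabp5 to Mreg (0.18), Cd9 to Znrd1 (0.09) and Pdgfa to Ubr4 (0.09). The 16 libraries share 4 groups, so genes that differ between Control and the exposed groups by a like amount come out near each other.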

How the data were processed

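RNA from whole mouse lung was measured in 16 libraries, and the titles of the samples gave the group, batch and replicate number of each. The deposited values are log2 of TPM plus 1, made by the authors. The submitters' processing notes name STAR, RSEM and GRCm39 (mm39), with annotation and strand setting not given in the sources used here. The identifiers matched symbols in GENCODE M21 (GRCm38) in 52093 of 53647 cases. Read numbers were not used here, no count model applies, and depth is unknown.

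The values were turned back to TPM, and limma 3.58.1 (R 4.3.3, statmod 1.5.0) with a trended prior variance was fitted to log2(TPM + 1) of the 16 libraries, as 4 group means plus a batch term. Tests were two-sided, and p-values were adjusted by Benjamini-Hochberg over 17003 genes (at least 1 TPM in at least 4 libraries), with a threshold of 0.05. Whether an effect differed by batch was tested as a contrast of the group-by-batch means. The procedure was tested on simulated data. Values for a single batch subtract the mean of 2 libraries from that of 2 others; tests with 1 batch alone come from a fit to its 8 libraries.

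Members and gene lists were chosen with earlier results of these data known. Named genes were the 10 members, up to 4 genes per list with the smallest p in Bleomycin against Control, list members that passed against the list's direction, and the genes of nearest profile (that of Apoe is not reported here); other list genes named, Scgb1a1 and Xist among them, were chosen after their values were seen. The labels do not say whether replicate numbers pair the libraries. Of 12 pairs with the same number and batch, 1 correlated above 0.1 (r from -0.158 to 0.212). Low correlation cannot show that libraries were unpaired, and the replicate block was used as an alternative only. Also tried were a mean of at least 5 TPM or no filter, a pseudocount of 0.1, quantile normalization, median-ratio scaling, no batch term, only the 2 groups compared, a robust prior, each batch alone, the fit without the 3 libraries low in Scgb1a1, and each library left out. A term for the 6 libraries with Xist was added after the data were seen. Promoter sequences are those of RefSeq on GRCm38.p6, 1 window per gene, taken at the start farthest upstream. Figures were drawn with matplotlib 3.10.9.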

Additional observations from a re-analysis of the deposited data

Results flagged for a closer look

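The difference of Pdgfa from Control depended on batch in both vector groups, and it moved alike in Bleomycin, where the change just missed the threshold. In Ad-ATP12A it was 0.65 in batch 1 and -0.46 in batch 2, a change of -1.11 on the log2 scale (interaction adjusted p = 0.0321, limma). In Ad-GFP it was 0.79 in batch 1 and -0.23 in batch 2, a change of -1.01 (adjusted p = 0.0376, limma). Both rest on the same 4 Control libraries, which stood at 59.9 and 84.0 TPM in batch 1 and at 105 and 91.6 TPM in batch 2. Over 21 alternatives each, the direction held in all, with the change between -1.35 and -0.87 for Ad-ATP12A and between -1.25 and -0.77 for Ad-GFP, and the adjusted p was not under 0.05 in 9 for Ad-ATP12A (up to 0.119) and in 13 for Ad-GFP (up to 0.159). For Bleomycin the change lay between -1.33 and -0.85 over 21 alternatives, and the adjusted p was not under 0.05 in 17 (up to 0.261, limma). The cause of the batch dependence was not tested.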

How the results depend on the processing

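Over 1740 values of single members under 29 alternatives, no called difference changed sign. In the comparisons with Control, 45 of 870 values lost their call, mostly for Apoe and Lpl or in 1 batch alone, 11 gained one, and 17 uncalled values changed sign. Genes called in Bleomycin against Control numbered 29 in batch 2 alone and 1468 without the libraries low in Scgb1a1, and members called 1 in batch 2 alone. In Ad-GFP against Control they numbered 963 with only the 2 groups compared, 3647 in batch 1 alone, 68 in batch 2 alone and 1375 without the libraries low in Scgb1a1, and members called 2 in batch 2 alone. In Ad-ATP12A against Control 2012 genes were called in batch 2 alone, and 3 members in batch 1 alone. With the replicate block, members called were 6 in Ad-ATP12A, 5 in Ad-GFP and 6 in Bleomycin against Control, since Apoe lost its call in the last 2, and no other member's call changed; genes called numbered 3216 in Ad-ATP12A, 1830 in Ad-GFP and 2636 in Bleomycin. Leaving out each library in turn gave 2225 to 4193 genes and 6 members in Ad-ATP12A, 870 to 2982 genes and 5 to 7 members in Ad-GFP, and 1484 to 3701 genes and 5 to 7 members in Bleomycin, each against Control, with the fewest without Ad-ATP12A b2r1, Ad-GFP b1r2 and Bleomycin b1r1. Without the libraries low in Scgb1a1, 6 members were called in Ad-ATP12A, 6 in Ad-GFP and 5 in Bleomycin. The 6 in Ad-GFP were not the same, since Apoe lost its call (adjusted p = 0.0730) and Fabp5 gained one (0.0483, limma). Among the exposed groups no member was called under any alternative. Genes called there were 0 for Ad-ATP12A against Ad-GFP with no filter, a mean of at least 5 TPM, only the 2 groups, the replicate block, batch 1 alone, without the libraries low in Scgb1a1 and with a term for Xist, and 0 to 2 with a library left out. For Ad-GFP against Bleomycin they were 1 with a pseudocount of 0.1, a mean of at least 5 TPM, quantile normalization, median-ratio scaling, no batch term and only the 2 groups, 0 with no filter, in either batch alone and without the libraries low in Scgb1a1, and 0 to 3 with a library left out. For Ad-ATP12A against Bleomycin they were 2 with a pseudocount of 0.1, a mean of at least 5 TPM, no batch term and a term for Xist, 1 in batch 2 alone, 0 with only the 2 groups and without the libraries low in Scgb1a1, and 2 to 6 with a library left out. The batch difference of the Bleomycin effect, with no member called, called 1 (Pdgfa) under a mean of at least 5 TPM, quantile normalization and median-ratio scaling, and 0 to 1 with a library left out. Batches alone and left-out libraries use fewer samples; other causes were not tested. Precision is limited by 4 libraries a group and unknown depth.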

Other observations

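Within the 12 bleomycin-exposed libraries, the 5 with at least 10 TPM of Xist had a median summed level of the 10 members of 5291 TPM (4074 to 11543), and the 7 others 8240 TPM (5188 to 16192). For Trem2 the medians were 39.0 TPM in the libraries with Xist and 67.6 TPM in the others, and for Fabp5 199 and 179 TPM. A term for Xist in the fit over all 16 libraries was -0.65 ± 0.23 for Trem2 (SE, adjusted p = 0.443) and passed for no member (limma; 10 of 17003 genes passed), and with it the 7, 6 and 6 members called in Bleomycin, Ad-GFP and Ad-ATP12A against Control were again 7, 6 and 6. This grouping was defined from the data and is not a group of the study.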
